A study of Mus musculus with 9 samples.

Results

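The constitutive 26S proteasome subunits were examined as a set of 34 mouse genes, Psma1 to Psma7, Psmb1 to Psmb7, Psmc1 to Psmc6 and Psmd1 to Psmd14. Members were chosen by name, as every probe of the array whose annotated symbol is one of these 34. That rule uses no measured value, but the set was picked for study with earlier results of these data known. All 34 were on the array with 62 of its 45281 probes, and 29 members were measured through 48 of the 16895 probes kept. Kept probes were those detected above background on 3 or more of the 9 arrays, by the authors' detection p-value (below 0.05). Psma1, Psma3, Psma6, Psmc6 and Psmd3 were not measured: their 7 probes were detected on at most 2 arrays. In all, 9391 genes were measured, each read from its kept probe with the highest mean.

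The cells were primary microglia, which are the macrophages that reside in the brain, grown from cortex of C57BL/6J mouse pups aged 1 to 5 days that carried an intact cannabinoid receptor gene (CB2+/+). One group was left unstimulated, one received bacterial lipopolysaccharide (LPS) with interferon gamma (IFNγ, 20 ng/ml) for 16 h, and one received 100 U/ml of interleukin-4 (IL-4) over 48 h, with 3 arrays each. No culture time is labelled for the unstimulated group, so stimulus and time in culture cannot be told apart, and the LPS dose is given with an incomplete unit. They also do not say whether replicates came from separate cultures, so p-values measure only the spread between these samples, and the number of arrays limits the precision. Mean intensity was 310.9 to 378.5 on 8 arrays, with 14475 to 16435 probes detected, while LPS/IFNγ replicate 2 had a mean intensity of 112 and 6208 detected probes. It was kept, and results are given with and without it.

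Microglial identity was checked first. All 10 microglial markers on the array, among them Csf1r, P2ry12 and Tmem119, were detected on every unstimulated array, against 0 of 8 astrocyte markers, 0 of 7 neuronal markers, 3 of 7 oligodendrocyte markers (Mbp, Mag and Cnp) and 1 of 8 endothelial and fibroblast markers (Pecam1). The summed signal of the microglial markers was 14.86 to 15.18 on the log2 scale in unstimulated cells, 13.10 to 13.44 after LPS/IFNγ and 14.37 to 14.78 after IL-4, so this marker list moved with the stimuli. The summed astrocyte markers were 6.49 to 7.37, 7.34 to 7.77 and 6.58 to 10.8 in the same order, with Aqp4 and S100b detected on no array. The 5 measured oligodendrocyte markers summed to 10.04 to 10.34, 9.83 to 10.90 and 9.68 to 10.14. The 1 measured neuronal marker was at 4.56 to 5.02, 4.32 to 4.71 and 5.23 to 5.83. Pecam1, the 1 measured gene of the endothelial and fibroblast list, was at 5.20 to 6.29, 5.67 to 7.43 and 6.88 to 9.03. The part of cell composition in the results below was not tested. In bulk RNA, fewer cells of a type and less RNA per cell cannot be told apart.

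The 26S proteasome is the ATP-driven protease that degrades ubiquitin-tagged proteins in the cytosol and nucleus. Its 20S core is a stack of outer rings of alpha subunits, which gate the entrance, and inner rings of beta subunits, of which Psmb5, Psmb6 and Psmb7 carry the active sites. The 19S cap holds a ring of ATPases (Psmc subunits) that unfold the substrate and non-ATPase subunits (Psmd) that bind and remove ubiquitin. Psmd5, Psmd9 and Psmd10 are known as chaperones that assemble the base of the cap and are not parts of the finished particle, so 3 of the 34 members are assembly factors. In cells exposed to interferon, Psmb8, Psmb9 and Psmb10 take the places of the catalytic subunits Psmb5, Psmb6 and Psmb7 in newly made particles, the immunoproteasome, which serves antigen presentation.

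Promoters are shown for the members that rose against both other groups and had an entry in the RefSeq promoter table, and for the catalytic subunits with an entry. Each line gives the 150 bases before the annotated start, 5′ to 3′ on the strand of the gene, in build GRCm38.p6, and capitals mark matches to the motifs listed after them. The regions are chr3:108256776-108256925 on the plus strand for Psma5, chr2:61711544-61711693 on the plus strand for Psmd14, chrX:140956712-140956861 on the minus strand for Psmd10, chr14:54617996-54618145 on the minus strand for Psmb5 and chr11:70525207-70525356 on the plus strand for Psmb6.
Psma5: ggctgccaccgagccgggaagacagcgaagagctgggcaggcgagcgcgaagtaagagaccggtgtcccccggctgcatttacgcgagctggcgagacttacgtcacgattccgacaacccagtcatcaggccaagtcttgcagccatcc
Psmd14: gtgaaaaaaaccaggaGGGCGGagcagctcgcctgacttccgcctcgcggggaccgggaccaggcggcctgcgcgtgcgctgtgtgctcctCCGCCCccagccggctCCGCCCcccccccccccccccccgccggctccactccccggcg
Psmd10: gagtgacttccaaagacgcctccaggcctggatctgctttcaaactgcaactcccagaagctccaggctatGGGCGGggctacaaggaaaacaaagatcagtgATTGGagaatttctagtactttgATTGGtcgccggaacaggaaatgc
Psmb5: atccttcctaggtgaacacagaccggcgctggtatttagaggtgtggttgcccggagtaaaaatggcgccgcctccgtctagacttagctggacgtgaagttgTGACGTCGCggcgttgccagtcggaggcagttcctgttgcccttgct
Psmb6: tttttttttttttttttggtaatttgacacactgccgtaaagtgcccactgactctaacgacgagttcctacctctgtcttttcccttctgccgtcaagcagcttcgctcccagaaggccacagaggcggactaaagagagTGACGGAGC

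Each motif was searched on both strands of the 250 bases before the start, and the motifs were chosen with the expression values known. The antioxidant response element core, TGACNNNGC, which NRF1 and NRF2 (genes Nfe2l1 and Nfe2l2) are known to bind, was in the promoters of 5 of the 28 members with an entry (Psmb5, Psmb6, Psmc6, Psmd9 and Psmd12), against 10.2% of the 32851 promoters in the table. In Psmb5 it lay 47 to 39 bases before the start and in Psmb6 9 to 1 bases before it. The CCAAT box, CCAAT, was in 11 of 28 (33.8% of all promoters), with 2 copies in Psmd10, and the GC box, GGGCGG, in 17 of 28 (32.7%), with 3 copies in the sequence shown for Psmd14. None of the 28 held the gamma-activated site TTCNNNGAA (7.02%), and Psmb3, Psmd4 and Psmd9 held the interferon-stimulated core, GAAA repeated after any 2 bases (2.98%). Of the 7 members with an entry that rose after LPS/IFNγ, 0 held TGACNNNGC, 3 held CCAAT and 5 held GGGCGG. A match describes letters in the window and is no evidence of binding.

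After LPS/IFNγ most measured subunits lay above unstimulated cells, a direction that turned when all 9 arrays were centred on their medians instead of quantile-normalized. With median centring and LPS/IFNγ replicate 2 omitted, the member median was above 0, at 0.84. With quantile normalization and all arrays, 9 of 29 members rose and 0 fell in limma's test (adjusted p below 0.05), while of all 9391 genes 6.12% rose and 12.2% fell. The median log2 difference of the members was 0.61, against -0.22 over all genes. Without LPS/IFNγ replicate 2, 17 of 29 rose and 0 fell, against 14.2% and 20.1% of all genes, and the member median was 0.66 against -0.04. All 9 members that rose with all arrays were among the 17. Leaving out another array lowered the count. Without unstimulated replicates 1, 2 and 3, 1, 3 and 2 members rose, against 4.01%, 3.93% and 3.73% of all genes, so that without unstimulated replicate 1 the share of members that rose, 3.45%, was no higher than that of all genes. Without LPS/IFNγ replicates 1 and 3 it was 4 members each time (5.18% and 5.35%), and without IL-4 replicates 1, 2 and 3 it was 8, 5 and 5 (5.98%, 5.22% and 5.13%). The signed difference was above 0 for 26 members with all arrays (39.2% of all genes) and for 28 without the weak array (47.2%). The 3 members below 0 were Psmb1, Psmb5 and Psmd9, of which Psmd9 had the lowest unadjusted p (0.249).

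**Figure D1:**
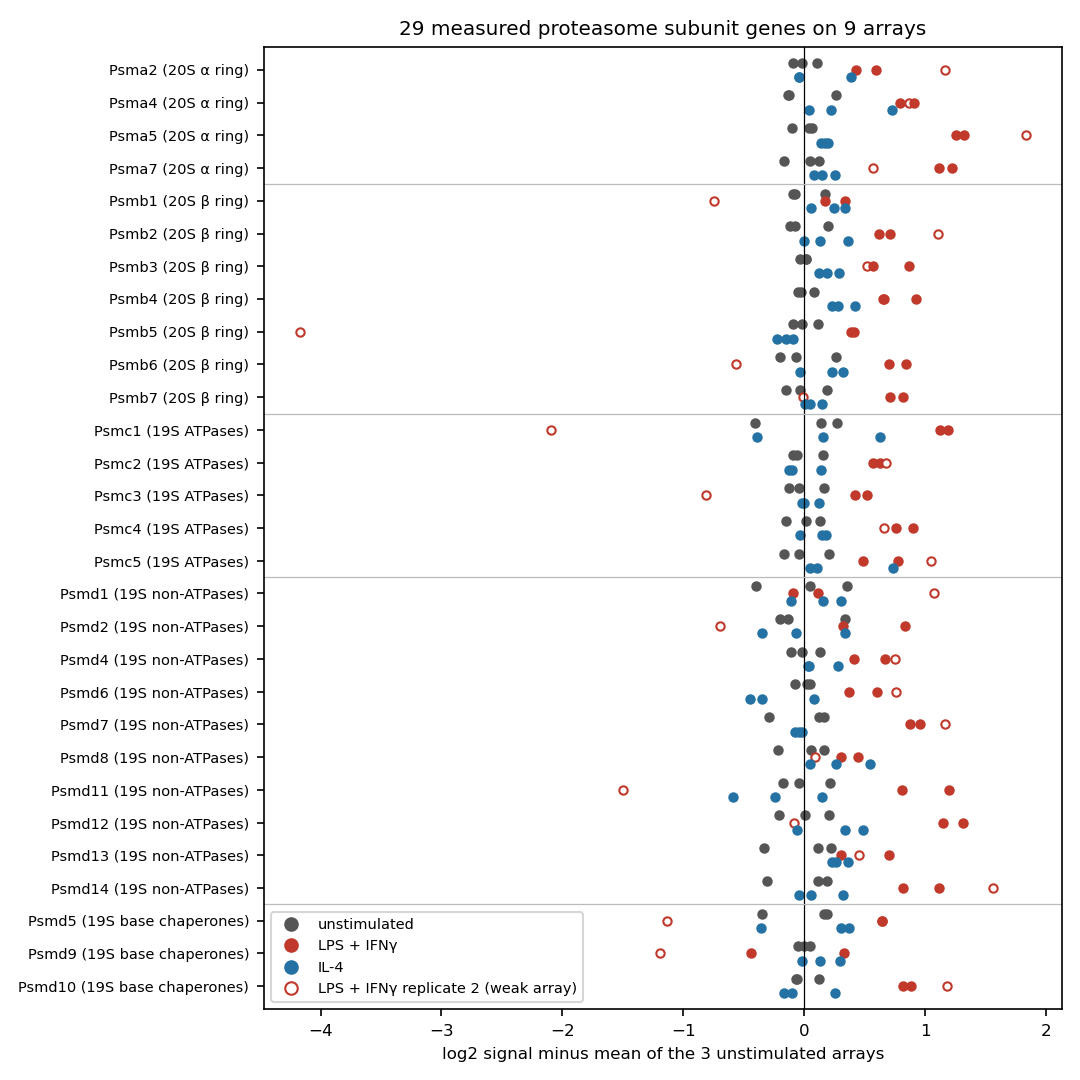
Log2 signal of each of the 29 measured subunits on each of the 9 arrays, minus the mean of the 3 unstimulated arrays (x axis), by subunit and sub-complex (y axis). Grey, red and blue points are unstimulated, LPS/IFNγ and IL-4 arrays, and open red points are LPS/IFNγ replicate 2. Most filled red points lie right of the grey ones, the open ones spread from -4.17 to 1.83, and blue points lie among or slightly right of the grey ones. The values are quantile-normalized. With median centring instead, the member median after LPS/IFNγ was -0.59 with all arrays and 0.84 with replicate 2 omitted.

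The shift was also read on each array, where LPS/IFNγ replicate 2 was the most uneven, with members from -4.17 to 1.83. The median over members of the difference from the unstimulated mean was 0.70 on replicate 1, 0.57 on replicate 2 and 0.70 on replicate 3, and 0.15, 0.12 and 0.12 on the IL-4 arrays. Over all genes the median on LPS/IFNγ replicate 2 was -0.50. On LPS/IFNγ replicates 1 and 3, 26 and 28 of the 29 members lay above all 3 unstimulated arrays (35.9% and 35.4% of all genes), and on replicate 2 it was 17 (30.3%). All 3 LPS/IFNγ arrays lay above all 3 unstimulated ones for 16 members, against 14% of all genes. Without replicate 2 this held for 26 members, against 27.7% of all genes. No member had all LPS/IFNγ arrays below all unstimulated ones, against 27% of all genes.

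Of the 4 measured alpha-ring subunits 3 rose, against 6.12% of all genes, with a list median of 0.91 (log2). Psma5, an alpha subunit with 1 kept probe, had the largest difference of any member. Its log2 signal was 11.55, 11.57 and 11.41 on the unstimulated arrays, 12.83, 13.35 and 12.77 after LPS/IFNγ, and 11.71, 11.68 and 11.65 after IL-4. The 3 LPS/IFNγ arrays stood above the other 6, which lay close together. Psma5 rose by 1.47 ± 0.22 (SE, n = 3 arrays per group), which is 2.77-fold (adjusted p = 0.0031), and by 1.29 ± 0.15 without replicate 2. It passed in 20 of the 21 alternatives run, each left-out array included, and median centring of all arrays was the exception.

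Psma7, another alpha subunit, read 9.88, 9.66 and 9.96 unstimulated, 11.06, 10.40 and 10.95 after LPS/IFNγ, and 9.92, 10.09 and 9.98 after IL-4. All LPS/IFNγ values were above the other 6, with replicate 2 the lowest of them. The rise was 0.97 ± 0.23 (1.96-fold, adjusted p = 0.0241), and 1.17 ± 0.17 without replicate 2. The second kept probe of Psma7 gave 0.83 (adjusted p = 0.135) and, without replicate 2, 1.23. Psma4 read 11.04, 10.65 and 10.65 unstimulated, 11.58, 11.64 and 11.69 after LPS/IFNγ, and 10.82 to 11.51 after IL-4. One IL-4 array of Psma4 came close to the LPS/IFNγ arrays, and the groups LPS/IFNγ and unstimulated did not overlap. Its rise of 0.86 ± 0.24 had an adjusted p of 0.0455, near the threshold. Psma2 was higher by 0.73 ± 0.25 without passing (adjusted p = 0.0911).

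The beta ring had 2 of 7 members past the threshold with all arrays, against 6.12% of all genes. Without LPS/IFNγ replicate 2 it had 5 of 7, against 14.2%. The medians were 0.51 and 0.72. Psmb4, a non-catalytic beta subunit, read 11.57, 11.60 and 11.71 unstimulated, 12.55, 12.29 and 12.28 after LPS/IFNγ, and 12.04, 11.91 and 11.86 after IL-4. The 3 groups of Psmb4 did not overlap, with IL-4 between the other groups. Psmb4 rose by 0.75 ± 0.19 (adjusted p = 0.0308), and Psmb2, likewise non-catalytic, rose by 0.81 ± 0.23 (adjusted p = 0.0422). The second kept probe of Psmb2 gave 0.68 (adjusted p = 0.106) and, without replicate 2, 0.91 (adjusted p = 0.00397). The calls of Psmb4 and Psmb2 held in 10 and 8 of 21 alternatives. Psmb3 was higher by 0.65 ± 0.19 (adjusted p = 0.0536) and passed without replicate 2 (0.72, adjusted p = 0.00999). Psmb1 read 10.63, 10.39 and 10.37 unstimulated, 10.64, 9.72 and 10.80 after LPS/IFNγ, and 10.80, 10.52 and 10.71 after IL-4. The groups of Psmb1 overlapped, and its difference was -0.08 ± 0.30 with all arrays and 0.26 ± 0.18 without replicate 2, neither past the threshold.

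None of the 3 catalytic subunits passed with all arrays. Psmb5, which carries the chymotrypsin-like site, read 8.50, 8.63 and 8.43 unstimulated, 8.90, 4.35 and 8.93 after LPS/IFNγ, and 8.30, 8.43 and 8.37 after IL-4. Its probe was not detected on LPS/IFNγ replicate 2, the array of the 4.35, and the other LPS/IFNγ arrays lay above all unstimulated and IL-4 arrays. With all arrays the difference was -1.12 ± 1.05 (adjusted p = 0.504), and without replicate 2 it was 0.40 ± 0.16 (adjusted p = 0.085). Psmb6, the caspase-like subunit, read 10.97, 11.44 and 11.10 unstimulated, 12.01, 10.61 and 11.87 after LPS/IFNγ, and 11.14, 11.40 and 11.50 after IL-4. Replicate 2 was again the low array, below all others, while replicates 1 and 3 were above all others. The difference of Psmb6 was 0.32 ± 0.37 (adjusted p = 0.586), and without replicate 2 it rose by 0.77 ± 0.20 (adjusted p = 0.0171).

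Psmb7, the trypsin-like subunit, read 10.57, 10.35 and 10.24 unstimulated, 11.21, 10.38 and 11.10 after LPS/IFNγ, and 10.54, 10.44 and 10.39 after IL-4. LPS/IFNγ replicate 2 fell within the range of the other groups, and replicates 1 and 3 stood above it. Psmb7 was higher by 0.51 ± 0.26 (adjusted p = 0.235) and rose by 0.77 ± 0.17 without replicate 2 (adjusted p = 0.00843). Its 4 kept probes gave differences from -1.13 to 0.51 with all arrays and from 0.54 to 1.12 without replicate 2, and 3 of them were not detected on that array. Psmd1 and Psmd9 were the other members whose kept probes differed in sign.

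**Figure D2:**
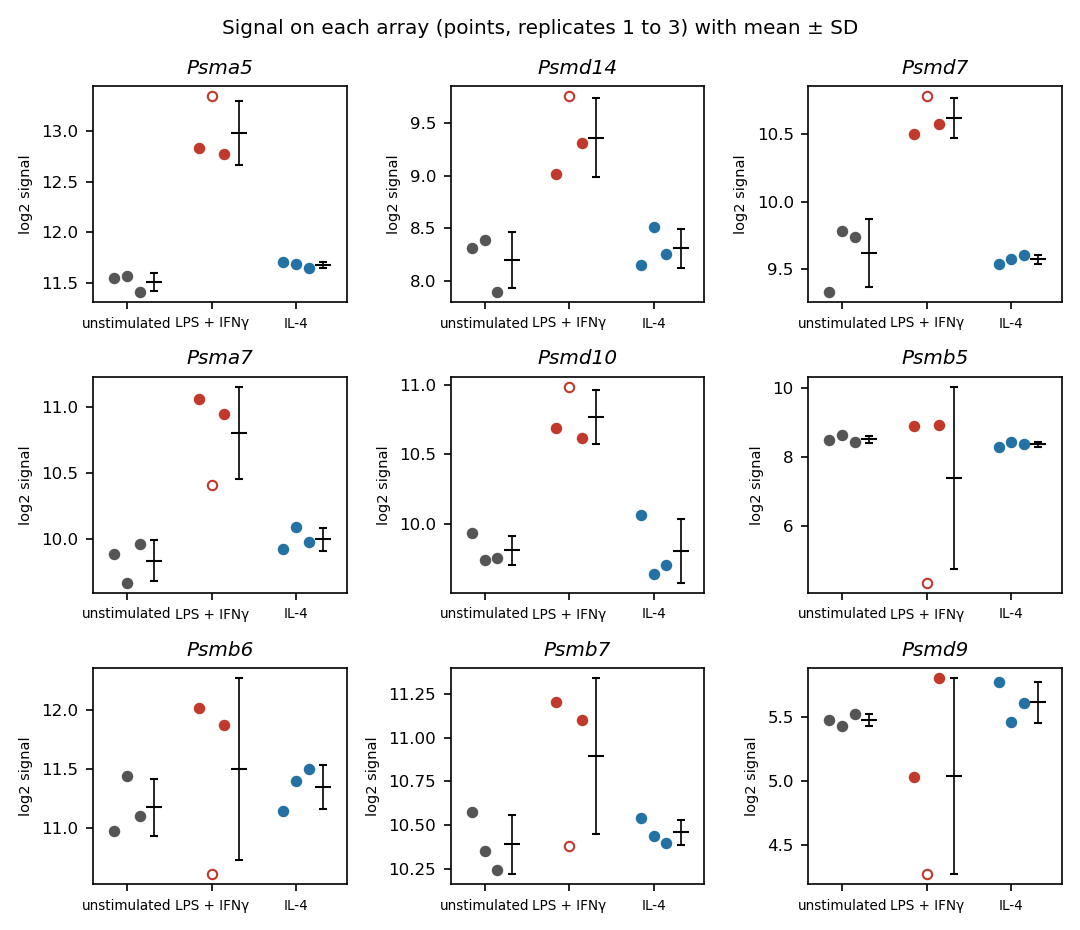
Log2 signal on each array (points, replicates 1 to 3 from left to right) with mean ± SD per group for 9 subunits, with open points for LPS/IFNγ replicate 2. Psma5, Psmd14, Psmd7, Psma7 and Psmd10 have all 3 LPS/IFNγ points above the other 6. In Psmb5, Psmb6, Psmb7 and Psmd9 the open point is the lowest or near the unstimulated level. The y axes differ between panels and do not start at 0.

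Among the 5 measured ATPases of the cap 1 rose with all arrays, against 6.12% of all genes. Without LPS/IFNγ replicate 2 it was 3, against 14.2%. The median was 0.63 in each case. Psmc4 rose by 0.77 ± 0.19 (adjusted p = 0.0285). Psmc2 was higher by 0.63 ± 0.19 (adjusted p = 0.0613), and its 3 LPS/IFNγ arrays, at 12.26 to 12.37, all lay above the unstimulated range of 11.60 to 11.85. Psmc1, named after its values were seen, read 9.93, 6.65 and 9.86 after LPS/IFNγ against 8.34 to 9.01 unstimulated, and was not detected on replicate 2. Without that array Psmc1 rose by 1.16 ± 0.30 (adjusted p = 0.0187), and with it the difference was 0.07 ± 0.80. Psmc3 and the probe that stood for Psmc5 did not pass either way, while the second kept probe of Psmc5 rose by 0.76 without replicate 2 (adjusted p = 0.00709).

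Of the 10 measured non-ATPase subunits 2 rose with all arrays, against 6.12% of all genes, and 5 without replicate 2, against 14.2%. The medians were 0.53 and 0.56. Psmd14, the metalloprotease that removes ubiquitin chains from the substrate, read 8.31, 8.39 and 7.89 unstimulated, 9.02, 9.76 and 9.31 after LPS/IFNγ, and 8.15, 8.52 and 8.26 after IL-4. The LPS/IFNγ arrays were all above the rest, and here replicate 2 was the highest. Psmd14 rose by 1.17 ± 0.26 (2.24-fold, adjusted p = 0.0181), and by 0.97 ± 0.21 without replicate 2. Its second kept probe rose by 1.36 (adjusted p = 0.0402).

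Psmd7, the partner with which Psmd14 forms a dimer, read 9.33, 9.78 and 9.74 unstimulated, 10.50, 10.78 and 10.58 after LPS/IFNγ, and 9.54, 9.58 and 9.60 after IL-4. The LPS/IFNγ arrays were all above the other 6, which overlapped each other. The rise was 1.00 ± 0.21 (2-fold, adjusted p = 0.0133). Its other 2 kept probes gave 0.68 and 0.26 without passing, and 1 of them passed without replicate 2 (1.11, adjusted p = 0.00199). Psmd11 and Psmd12, structural subunits of the lid, were near the unstimulated level or below it on replicate 2 and high on the other LPS/IFNγ arrays. Psmd11 read 7.24, 6.84 and 6.97 unstimulated, 7.83, 5.52 and 8.22 after LPS/IFNγ, and 6.43, 6.77 and 7.16 after IL-4. Its difference of 0.17 ± 0.62 became 1.00 ± 0.25 (adjusted p = 0.0135) without replicate 2, where the probe was not detected. Psmd12, named after its values were seen, went from 0.79 ± 0.37 (adjusted p = 0.202) to 1.23 ± 0.21 (adjusted p = 0.0026).

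Psmd6, another lid subunit, had a low signal, at 5.85, 5.97 and 5.95 unstimulated, 6.29, 6.68 and 6.52 after LPS/IFNγ, and 5.47, 6.00 and 5.57 after IL-4. Its probe was not detected on replicate 2, where the value was the highest of the 9. The difference from unstimulated cells, 0.58 ± 0.22, did not pass (adjusted p = 0.123). Psmd1, a scaffold of the base, read 11.75, 12.70 and 11.54 after LPS/IFNγ against 11.23 to 11.99 unstimulated, with replicate 2 the one array above the unstimulated range on this probe. The difference was 0.37 ± 0.35 with all arrays and 0.01 ± 0.24 without replicate 2. The dimmest of its 3 kept probes read 7.47, 5.24 and 7.77 against an unstimulated mean of 6.96. It rose by 0.66 without replicate 2 (adjusted p = 0.0294). Replicate 2 stood apart on each of these probes of Psmd1, but in opposite directions.

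Among the 3 base chaperones, Psmd10 (gankyrin) rose, against 6.12% of all genes, and the other 2 did not pass. Psmd5, undetected on replicate 2, differed by 0.05 ± 0.48 with all arrays and by 0.64 ± 0.26 without it (adjusted p = 0.0945). Psmd10 read 9.93, 9.74 and 9.75 unstimulated, 10.69, 10.99 and 10.62 after LPS/IFNγ, and 10.06, 9.64 and 9.70 after IL-4. Its LPS/IFNγ arrays did not overlap the others, and the rise was 0.96 ± 0.22 (1.95-fold, adjusted p = 0.018). The other 2 kept probes of Psmd10 gave 1.07 (adjusted p = 0.00741) and 0.43 (adjusted p = 0.637, undetected on replicate 2), and both were past the threshold without that array. Psmd9 read 5.47, 5.43 and 5.52 unstimulated, 5.03, 4.28 and 5.80 after LPS/IFNγ, and 5.77, 5.46 and 5.61 after IL-4. The LPS/IFNγ arrays of Psmd9 lay on both sides of the unstimulated ones, and the difference was -0.44 ± 0.35 (adjusted p = 0.439) with all arrays and -0.06 ± 0.23 without replicate 2. Its second kept probe, near background, gave 0.41 and 0.56.

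**Figure D3:**
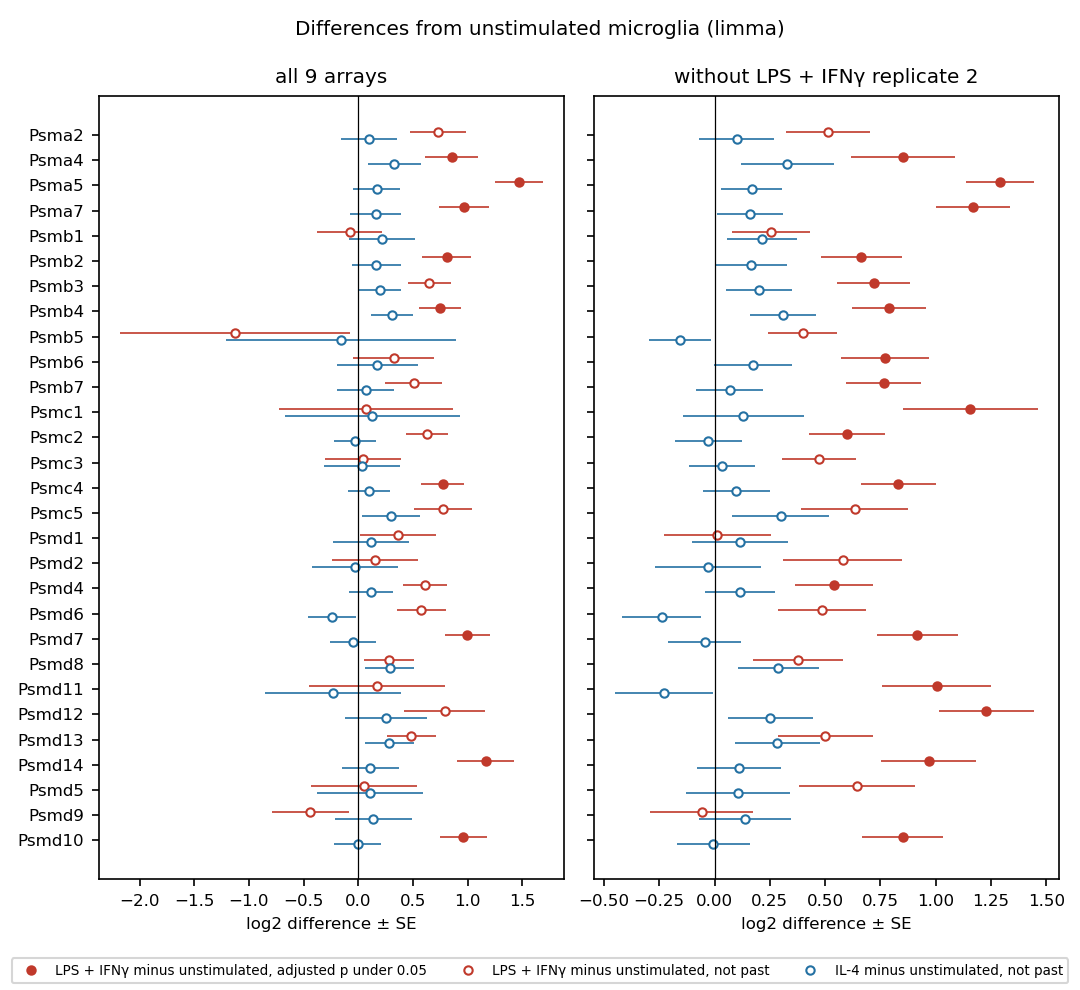
Log2 difference from unstimulated microglia ± SE in limma (x axis) for the 29 measured subunits (y axis), with all 9 arrays on the left and without LPS/IFNγ replicate 2 on the right. Red is LPS/IFNγ and blue is IL-4, and filled points have an adjusted p below 0.05: 9 red points on the left, 17 on the right, and no blue ones. With median centring instead, the median of the red points turns to -0.59 with all arrays and is 0.84 without LPS/IFNγ replicate 2. The scales of the panels differ.

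The position of a member on LPS/IFNγ replicate 2 went with its signal level. Of the 14 members with an unstimulated level above the member median of 9.90 (log2), 11 were above their unstimulated mean on that array, with a median of 0.67. Of the 15 at or below it 7 were, with a median of -0.09. The 7 members not detected there had a median of -1.20, with 1 above the unstimulated mean, and the 22 detected there had a median of 0.67, with 17 above. Detection was called on that same array, so low values among undetected members are built into this split and add no support. Among replicates of a group, the median SD over members was 0.17 unstimulated, 0.18 after IL-4 and 0.35 after LPS/IFNγ, where Psmb5 was the widest at 2.64.

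**Figure D4:**
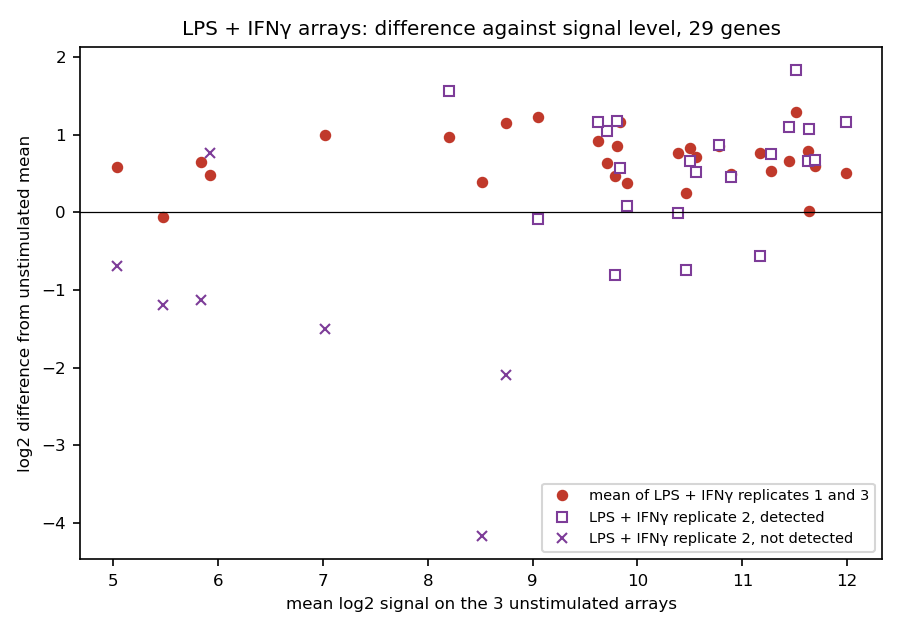
Mean log2 signal of each of the 29 subunits on the unstimulated arrays (x axis) against its log2 difference from that mean after LPS/IFNγ (y axis). Red points are the mean of replicates 1 and 3, and purple squares and crosses are replicate 2 where the probe was detected or not. The red points are above 0 except for Psmd9, while 6 of the 7 crosses are below 0.

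At probe level, 11 of the 48 kept probes of members rose after LPS/IFNγ and 0 fell, against 5.33% and 10.4% of all kept probes. Without replicate 2 it was 30 probes, against 14.6%. Of the 29 measured members 15 have 1 kept probe, so the call of each rests on that probe.

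No subunit passed the test after IL-4. Of 29 members 0 rose and 0 fell (limma, adjusted p below 0.05), against 0.0639% and 0% of all genes, and 0 had an unadjusted p below 0.05. Differences ran from -0.24 (Psmd6) to 0.33 (Psma4) with a median of 0.12, against 0.01 over all genes, and 22 members were above 0 (51.7% of all genes). On IL-4 replicates 1, 2 and 3, 13, 11 and 12 members lay above all 3 unstimulated arrays, against 30.9%, 28.9% and 29.3% of all genes. All IL-4 arrays lay above all unstimulated ones for Psma5, Psmb3, Psmb4 and Psmd13, which is 4 members against 10% of all genes, and below them for Psmb5 (1 member, 8.23%). Between arrays of equal replicate number, 15 members were higher after IL-4 in all 3 pairs (20.7% of all genes) and 2, Psmb5 and Psmc2, lower in all 3 (18.4%). Among these 15 the steps ran from 0.0049 to 0.60, both in Psmd13, and reached 0.53 in Psmc5. They were more even in Psmd8 and Psmd12, at 0.21 to 0.38 and 0.15 to 0.33. These 4 members were named after their values were seen. With the replicate number as a block 0 members passed, and 0 had an unadjusted p below 0.05. That fit held all 9 arrays, so its spread included LPS/IFNγ replicate 2 and was not that of the pairs alone. The pairs alone were not tested.

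The members with the lowest p-values in each direction did not pass. Psmb4, with its values given above, was higher by 0.31 ± 0.19 and Psma4 by 0.33 ± 0.24, each with an adjusted p of 1. Psmd6 differed by -0.24 ± 0.22 and Psmd11 by -0.23 ± 0.62. For the catalytic subunits the differences were -0.16 ± 1.05 (Psmb5), 0.17 ± 0.37 (Psmb6) and 0.07 ± 0.26 (Psmb7). The SE of Psmb5 is set by the shared spread of the fit, which contains LPS/IFNγ replicate 2, and without that array it was 0.14. These p-values do not show that the levels were equal.

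LPS/IFNγ and IL-4 were also compared with each other, on the same LPS/IFNγ arrays as above. LPS/IFNγ was given for 16 h and IL-4 over 48 h, so stimulus and exposure time cannot be told apart here. Psma5, Psmd6, Psmd7, Psmd10 and Psmd14 were higher after LPS/IFNγ, 5 of 29 against 5.69% of all genes, and 0 were lower (11.6%). Psma5 was higher by 1.30 ± 0.22 (2.46-fold, adjusted p = 0.00535) and Psmd14 by 1.05 ± 0.26 (adjusted p = 0.029). Psmd7 was higher by 1.04 ± 0.21 (adjusted p = 0.0119), Psmd10 by 0.97 ± 0.22 (adjusted p = 0.0186) and Psmd6 by 0.82 ± 0.22 (adjusted p = 0.042). The other kept probe of Psmd6 differed by 0.05 (adjusted p = 0.917), and the call of Psmd6 held in 7 of 21 alternatives, with an adjusted p of 0.0673 under the slide block and 0.0545 under the replicate block. Of these, Psma5, Psmd7, Psmd10 and Psmd14 were also past the threshold against unstimulated cells. The count fell to 1 without IL-4 replicate 2 or 3 (3.38% and 3.06% of all genes, close to the members' 3.45%). It was 3 without IL-4 replicate 1 (5.44%), LPS/IFNγ replicate 3 (4.71%) or unstimulated replicate 1 (4.72%), and 4 without LPS/IFNγ replicate 1 (4.79%) or unstimulated replicate 2 or 3 (4.97% and 4.64%). The member median was 0.45, against -0.24 over all genes, and in 14 members no LPS/IFNγ array reached down to the IL-4 arrays (12.6%). The difference was above 0 for 23 members (37.6%).

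Without LPS/IFNγ replicate 2, 14 members were higher than after IL-4 (13.1% of all genes) and 0 lower (19.6%), 27 had a difference above 0 (45.5%), 22 did not overlap (25.3%) and the median was 0.55. Psmb5 was then among the 14, with a difference of 0.55 ± 0.16 (adjusted p = 0.027), and so was Psmb7 with 0.70 ± 0.17 (adjusted p = 0.014). With all arrays the catalytic subunits differed by -0.97 (Psmb5), 0.15 (Psmb6) and 0.44 (Psmb7) without passing. The members below 0 with the lowest p were Psmd9, at -0.57 ± 0.35 (unadjusted p = 0.14), and Psmb1, at -0.29 ± 0.30. By probe, 6 of 48 were higher with all arrays (4.84% of all kept probes) and 25 without replicate 2 (13.6%).

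The arrays were run on 2 slides, read from the array identifiers. Slide 1 held replicates 1 and 2 of LPS/IFNγ and of IL-4, and slide 2 held the other arrays, including all 3 unstimulated ones. With slide as a block, 1 member (Psma5, 1.35, adjusted p = 0.0352) rose after LPS/IFNγ against unstimulated cells (2.57% of all genes), and 4 (Psma5, Psmd7, Psmd10 and Psmd14) were higher than after IL-4 (4.95%). With slide as a block and LPS/IFNγ replicate 2 omitted, a setting chosen after the values were seen, 12 and 13 members passed (10.1% and 11.6%). With array weights, by which limma gives a deviating array less say, 19 members rose against unstimulated cells (15.9% of all genes) and 19 were higher than after IL-4 (15.7%). Using the deposited log2 values, 13 members passed in each of these comparisons (7.57% and 7.85%). A slide effect had already been removed from those values, and the fit does not count it among its parameters, which its p-values therefore leave out. Within slide 2, which holds 1 LPS/IFNγ array and 3 unstimulated ones, the member median was 0.70 and 28 of 29 members were higher, against 46.1% of all genes. Against IL-4 the median was 0.62 within slide 2, between 1 array of each group (27 of 29 higher, against 44.6% of all genes). Within slide 1, with 2 arrays of each group and LPS/IFNγ replicate 2 among them, it was 0.37 (22 of 29 higher, against 36.3%). Between the 1 IL-4 array and the 3 unstimulated arrays of slide 2 the member median was 0.12.

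Scaling bore on the sign. Quantile normalization gives every array the same distribution, whereas with median centring of all arrays the member median against unstimulated cells was -0.59, with all genes at -1.01, and 0 members passed. Relative to the median of all genes the members stood at 0.41, with 25 of 29 above it. With median centring and LPS/IFNγ replicate 2 omitted, again chosen after the values were seen, the member median was 0.84, 28 of 29 members were above the median of all genes (-0.22), and 17 rose (9.19% of all genes).

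Genes that work with the constitutive subunits were read from lists chosen with earlier results of these data known. The immunoproteasome subunits rose, 2 of 3 with all arrays and 3 of 3 without replicate 2. Of all genes 6.12% rose and 12.2% fell with all arrays, and 14.2% and 20.1% without replicate 2. These shares apply to the lists that follow as well. Psmb9 rose by 1.88 ± 0.43 (adjusted p = 0.0206) and Psmb10 by 1.67 ± 0.30 (adjusted p = 0.00735). Psmb8 read 8.17, 7.76 and 8.18 unstimulated and 10.04, 4.42 and 9.79 after LPS/IFNγ, undetected on replicate 2. Like Psmb5 it was at background on that array, and its difference was 0.04 ± 1.27 with all arrays and 1.88 ± 0.20 without it. The second kept probe of Psmb8 rose by 1.80 ± 0.50 (adjusted p = 0.0428). The differences of the catalytic subunits that these 3 replace were, without replicate 2, 0.40 (Psmb5), 0.77 (Psmb6) and 0.77 (Psmb7), beside 1.88 (Psmb8), 2.23 (Psmb9) and 1.67 (Psmb10). Whether the differences themselves differ was not tested.

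**Figure D5:**
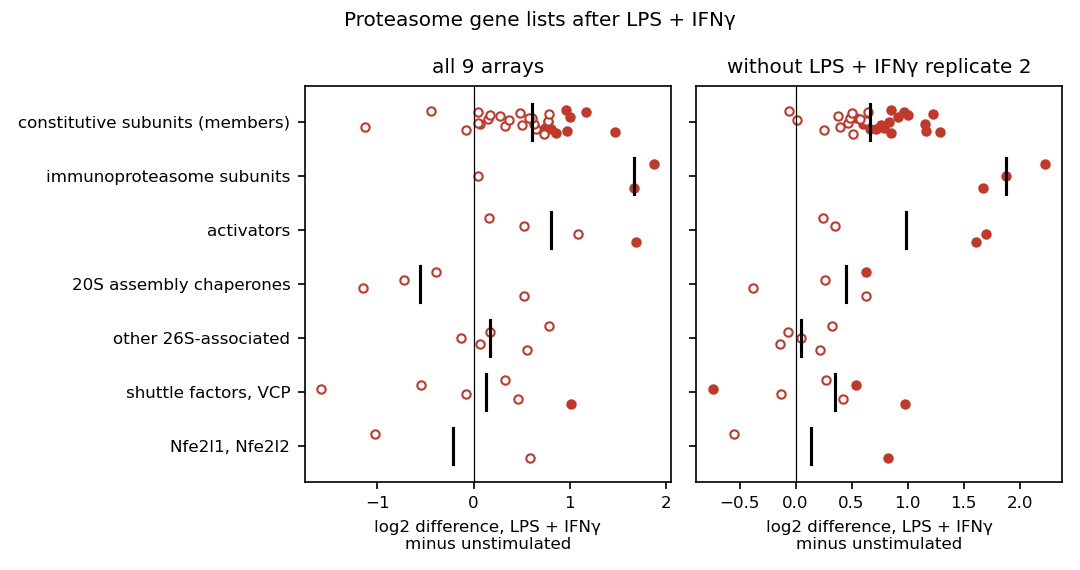
Log2 difference between LPS/IFNγ and unstimulated cells (x axis) for each measured gene of 7 lists (y axis), with all arrays on the left and without LPS/IFNγ replicate 2 on the right. Filled points have an adjusted p below 0.05 in limma and black bars are list medians: 0.61 and 0.66 for the constitutive subunits, 1.67 and 1.88 for the immunoproteasome subunits. With median centring instead, the median of the constitutive subunits turns to -0.59 with all arrays and is 0.84 without LPS/IFNγ replicate 2. The scales of the panels differ.

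Among activators that cap the 20S core, 1 of 4 rose with all arrays (Psme1, adjusted p = 0.00318) and 2 without replicate 2. Psme4 was not among them (0.25, adjusted p = 0.418), but its second kept probe, near background, rose by 0.64 without replicate 2 (adjusted p = 0.0145). Psme2, the partner of Psme1 in the interferon-induced 11S cap, was undetected on that array, and its difference went from 1.08 ± 0.50 (adjusted p = 0.192) to 1.70 ± 0.27 (adjusted p = 0.00156). Of 4 chaperones of 20S assembly 0 passed with all arrays, with a median of -0.56, and 1 (Psmg3, 0.63, adjusted p = 0.0185) rose without replicate 2, with a median of 0.45. Psmg1, Psmg2 and Psmg3 were undetected on replicate 2. None of 5 other 26S-associated factors passed either way. Nfe2l1, which encodes the factor known to drive proteasome genes when degradation is impaired, was higher by 0.59 ± 0.29 (adjusted p = 0.225) and rose by 0.83 ± 0.24 without replicate 2 (adjusted p = 0.0259), while Nfe2l2, detected on 2 of the 3 LPS/IFNγ arrays, differed by -1.02 ± 0.40 (adjusted p = 0.124) and by -0.55 ± 0.23 without replicate 2 (adjusted p = 0.0945). Among 6 shuttle factors and VCP partners, which bring ubiquitinated proteins to the proteasome, Nploc4 rose by 1.02 ± 0.20 (adjusted p = 0.0109). Without replicate 2, 2 of the 6 rose (Nploc4 and, by 0.54, Ufd1 with adjusted p = 0.0468) and Ubqln4 fell by 0.74 (adjusted p = 0.00707). Ubqln1 was not among them, as the probe that stood for it differed by -0.13 (adjusted p = 0.70). Its other kept probes rose by 0.996 and 0.907 without replicate 2 (adjusted p = 0.0166 and 0.00625). After IL-4 none of these listed genes passed. The 5 ubiquitin genes had no probe annotated with that symbol alone, and of the tissue-specific subunits Psma8 alone was measured (-0.45, adjusted p = 0.264).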

How the data were processed

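RNA of 9 primary microglia samples was measured on Illumina bead arrays. The authors deposited linear scanner intensity values per probe, neither background-subtracted nor scaled as far as the values show, and a detection p-value beside each, per the file headers. They also deposited log2 values, which held quantile-normalized log2 intensities shifted per probe by 0.5 times a slide coefficient, in opposite directions on the 2 slides (correlation 1.00 across probes). Their column medians are 6.91 to 6.94. Partek is named in the submitters' processing notes, with no role or version.

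Background was corrected by normexp, fitted through the detection p-values with an offset of 16, and log2 values were then quantile-normalized (limma 3.58.1, R 4.3.3). Probes detected at p below 0.05 on at least 3 of 9 arrays were fitted in 1 limma model of the 3 groups without covariates, with Benjamini-Hochberg adjustment over all 16895 kept probes within each comparison and a threshold of 0.05. The fitting was tested on simulated data with independent noise. The simulation held no weak array, slide effect or pairing, so it cannot tell how these bear on the calls. Symbols came from the platform annotation supplied with the table: 34885 probes had 1 symbol, 18 several and 10378 none. The labels name no statistical model. The members, gene lists and motifs were chosen with earlier results of these data known. Values on all arrays are given for Psmb5, Psmb6 and Psmb7 and, per comparison and direction, for the 4 members past the threshold with the largest difference or, where none passed, the 2 with the lowest p.

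Alternatives were no background correction, median centring, no filter or a stricter one (6 arrays), slide or replicate number as a block, array weights, a floor for undetected values at each array's lowest detected one, the deposited log2 table, the mean over a gene's probes, and leaving out each array. Equal replicate numbers deviated together between IL-4 and unstimulated arrays (correlations across probes of 0.366, 0.427 and 0.30), so the numbers were read as pairing these arrays; in the other comparisons the correlations were -0.12 to 0.07. Promoters came from a RefSeq table (GRCm38.p6) that matched 28 of the 34 members.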

Additional observations from a re-analysis of the deposited data

How the results depend on the processing

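In the comparison of LPS/IFNγ with unstimulated cells, members past the threshold numbered 9 with the settings used in the report, 14 without background correction, 19 with array weights, 1 with slide as a block, 0 with median centring and 17 with median centring and LPS/IFNγ replicate 2 omitted. Leaving out each array in turn gave 1 to 17. Of all genes past the threshold, 575 were higher and 1143 lower in the report, and 678 and 1273 without background correction. Member probes past it numbered 31, 17, 1, 0, 25 and 26 with array weights, the deposited log2 table, slide as a block, median centring, slide as a block with replicate 2 omitted and median centring with it omitted, and 2 to 30 when arrays were left out. Of these settings, the share of all kept probes was computed only with replicate 2 simply left out (14.6% higher). The other probe counts therefore cannot be set against all probes. For all genes the counts, 1718 in the report, were 3692 (array weights), 667 (slide as a block), 911 (median centring) and 2992 (median centring, replicate 2 omitted), and 980 to 3220 with arrays left out. The member median of 0.61 was 0.49 with the mean over probes, 0.50 with no filter, 0.75 with undetected values raised, -0.59 with median centring and 0.84 with that and replicate 2 omitted.

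Against IL-4, the 5 members past the threshold became 12 without background correction, 8 without filter, 3 with the mean over probes, 19 with array weights, 13 with the deposited table, 0 with median centring, and 13 and 9 with slide as a block and median centring when replicate 2 was omitted. Leaving out arrays gave 1 to 14. Of all genes past the threshold, 534 were higher and 1093 lower in the report, and 643 and 1219 without background correction. These splits were 504 and 1114 with the mean over probes and 737 and 1448 with the deposited table. Without filter, where more genes were tested, they were 487 and 870. Member probes numbered 13 (no background correction), 30 (array weights), 14 (deposited table), 0 (median centring), 24 and 14 (slide block and median centring, replicate 2 omitted), and 2 to 25 with arrays left out. Here too the share of all kept probes was computed only with replicate 2 simply left out (13.6% higher). All genes, 1627 in the report, were 3794 with array weights, 875 with median centring, and 2743 and 3041 with slide as a block and median centring when replicate 2 was omitted, and 808 to 3067 with arrays left out. The member median of 0.45 was -0.82 with median centring, 0.57 with that and replicate 2 omitted, and 0.62 within slide 2, between 1 array of each group.

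Between IL-4 and unstimulated cells 0 members passed under every alternative run. All genes past the threshold, 6 in the report, numbered 11 without background correction, 1 with the stricter filter, 3 with slide as a block, 255 with array weights, 0 with undetected values raised, 19 with the deposited table and 42 with median centring and replicate 2 omitted, and 2 to 36 with arrays left out. The member median was 0.23 with median centring, with or without replicate 2. Of all calls against unstimulated cells after LPS/IFNγ, 575 were higher and 1143 lower with quantile normalization, 26 and 885 with median centring, and 753 and 660 with undetected values raised. Against IL-4 these splits were 534 and 1093, 31 and 844, and 668 and 570.

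With the replicate block 6, 0 and 4 members passed against 9, 0 and 5, and 1515, 4 and 1402 genes in all, in the order LPS/IFNγ and IL-4 against unstimulated cells and LPS/IFNγ against IL-4. The block belongs to the pairing of the second comparison, where it changed no member's call. It was fitted to all 9 arrays, so the shared spread also held LPS/IFNγ replicate 2. No fit with this block was run without that array, so the unchanged calls do not settle what the pairs show.

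Under at least 1 of 21 alternatives the sign turned for 28, 14 and 28 of 29 members after LPS/IFNγ, after IL-4 and between the stimuli, and for 10, 14 and 12 with median centring of all arrays set aside. For the members named by the rule, signs turned as follows. For Psmb5 after LPS/IFNγ the difference was 0.36 with array weights, 0.40 without LPS/IFNγ replicate 2, 0.40 with slide as a block and it omitted, and 0.25 with median centring and it omitted; against IL-4 the values were 0.48, 0.55, 0.55 and 0.35, and 0.028 with undetected values raised. Leaving out arrays gave Psmb5 -1.89 to 0.40 against unstimulated cells and -1.74 to 0.55 against IL-4. Psmb1 against IL-4 was 0.040 with array weights, -0.50 to 0.040 with arrays left out, and 0.024 and 0.074 with slide as a block and median centring when it was omitted. Psmd9 with undetected values raised was 0.58 against unstimulated cells and 0.45 against IL-4, and 0.11 against unstimulated cells with slide as a block and replicate 2 omitted. With median centring, against unstimulated cells, Psma7 was -0.42, Psmb6 -0.96, Psmb7 -0.85, Psmd14 -0.31 and Psmd7 -0.39, and against IL-4 Psmb6 was -1.25, Psmb7 -1.02, Psmd10 -0.46, Psmd14 -0.49 and Psmd7 -0.42. The mean over its probes gave Psmb7 -0.48 against unstimulated cells, -0.47 against IL-4 and, for IL-4 against unstimulated cells, -0.012, a difference that was -0.0060 to 0.16 with arrays left out. Psmb6 against IL-4 was -0.11 to 0.60 with arrays left out. After IL-4, Psmb5 was 0.61 and Psmd11 0.47 with slide as a block, 0.29 and 0.28 with the deposited table, and Psmd11 was 0.10 with slide as a block and replicate 2 omitted. The causes were not tested. Psmb5, Psmc1, Psmd2, Psmd5, Psmd6, Psmd9 and Psmd11 were undetected on LPS/IFNγ replicate 2. With all arrays, their LPS/IFNγ means therefore include a value not called above background. A further 5 members were not measured.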
